A study of Arabidopsis thaliana with 6 samples.

Results

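A set of 5 genes for ubiquitin ligases is described here, 5 of the 539 genes (541 probe sets) that could be named among the 22810 probe sets of the array: CNI1 (also called ATL31) and RHA3B, which encode RING-H2 proteins, and PUB19, PUB22 and CMPG1, which encode U-box proteins. They were picked by name from the tables in which the authors list probe sets that differ between the genotypes, and all 5 stand in the up table. Their differences between genotypes are therefore a description of why they were listed, with no test of their own. The symbol column named 3 of them, CMPG1, PUB22 and RHA3B, and CNI1 and PUB19 were found by their Entrez gene identifier. Each has 1 named probe set, of the kind that reads a single gene.

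The study set 3 ATH1 arrays of an Arabidopsis thaliana line overexpressing the NAC transcription factor ANAC069 (line OE-3, called OE) against 3 arrays of a knockout line of the same gene (line KO-2, insertion SALK_095231C, called KO). All plants were 4 weeks old and had received 200 mM NaCl, a salt stress, for 3 h before RNA extraction. Each genotype is a single line, neither the promoter of the transgene nor the organ harvested is given in the sources used here, and untreated or wild-type plants were not analysed here. A value below is thus a difference between OE and KO under salt, and a change in RNA per cell cannot be told apart from a change in the number of cells that make it. Of 14 marker loci of green tissue, root, flower and seed, 0 had a named probe set.

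Ubiquitin ligases are the last enzymes of the chain that attaches ubiquitin to proteins. They hold the target and a ubiquitin-conjugating enzyme together, and the label often sends the target to the proteasome. RING-H2 proteins fold their ligase domain around zinc ions, whereas the U-box has a similar fold without metal. In Arabidopsis, members of both families are switched on quickly by microbial elicitors, salt, drought or abscisic acid, and several act as brakes on the same signalling.

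Array medians were 157.7, 148.6 and 156.6 in OE, each below those of 160.7, 181.5 and 185.5 in KO. The mean log2 ratio of 3' to 5' signal over 6 control gene pairs, a sign of RNA quality, lay between 1.73 and 1.97 in OE and between 1.53 and 1.80 in KO. ANAC069 itself had signals of 2991, 2386 and 2360 on OE arrays, against 385.6, 364.0 and 391.4 on KO arrays, which is in the direction of the labels. The signal is the MAS5 value that the authors deposited, on a linear scale. Log2 differences are of log2(signal + 16), OE minus KO, fitted with limma over the 15922 probe sets that passed a filter on low values, so they understate the change of dim probe sets.

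All 5 genes had higher signals in OE than in KO on every array. The group means differed by between 1.0 (RHA3B) and 2.36 (PUB19) on the log2 scale. Among all probe sets tested, 12.9% had each OE array above each KO array, and 3.03% were higher in OE at a limma adjusted p under 0.05, as all 5 were; since the listing used the same contrast, nothing is read from these counts. The median log2 difference over all probe sets tested was -0.08. The 5 genes passed the filter, but PUB22 did so only through its OE arrays: the filter lay at a log2 level of 5.73, and its mean was 6.83 in OE and 5.53 in KO.

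**Figure D1:**
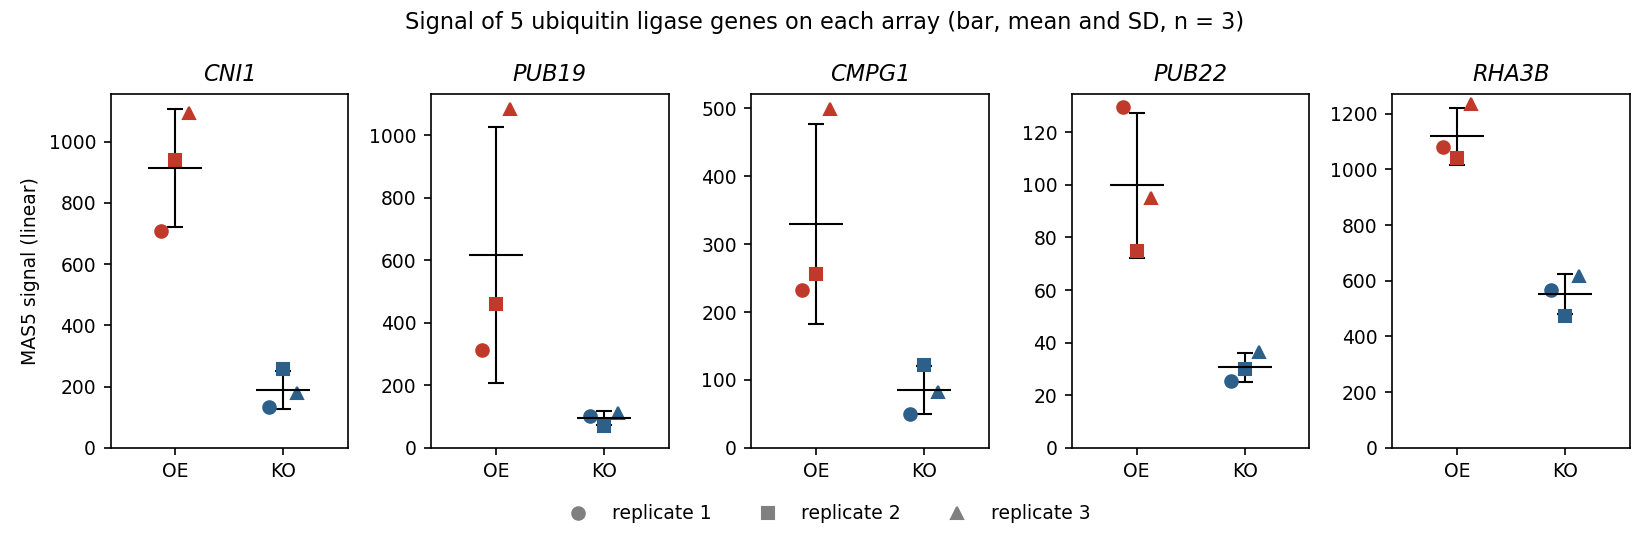
MAS5 signal (linear axis from 0, a separate scale per gene) of the 5 ligase genes on each of the 6 arrays, OE left of KO, with the marker shape giving the replicate and the bar the mean and SD (n = 3). OE arrays lie above KO arrays for each gene, and PUB19 and CMPG1 spread most within OE, with replicate 3 at 1083 and 499.5.

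CNI1 (AT5G27420, probe set target on chromosome 5, 9684118 to 9685225, plus strand, as the up table gives it, on a build that the sources used here do not name) encodes a membrane-bound ligase that controls how seedlings respond to the balance of carbon and nitrogen and that also acts in defence. Its signal was 708.7, 941.9 and 1094 on OE arrays, against 133.1, 256.8 and 180.1 on KO arrays. The lowest OE array was 2.76 times the highest KO array, in the contrast for which the gene was listed. Means were 915 ± 194 in OE and 190 ± 62.5 in KO (SD, n = 3 each), a log2 difference of 2.20 (SE 0.25), or 4.59-fold. Of all probe sets tested, 0.270% had a larger log2 difference. CNI1 lay above 78.4% to 85.3% of probe sets on OE arrays and above 47.1% to 56.5% on KO arrays.

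RHA3B (AT4G35480, chromosome 4, 16852232 to 16852835, minus strand, same table) encodes a small RING-H2 protein of the same ATL family. Its signal was 1081, 1042 and 1235 on OE arrays, against 566.3, 474.9 and 616.6 on KO arrays. The groups did not overlap, and the replicates were the closest together of the 5 genes, with a coefficient of variation of 9.10% in OE and 13% in KO. The means of 1119 ± 102 in OE and 553 ± 71.8 in KO (SD, n = 3 each) gave a log2 difference of 1.0 (SE 0.15), the smallest of the 5. RHA3B was also the gene nearest the limit of the deposited tables, which list probe sets of at least 2-fold: the ratio of its geometric means was 2.03, and the closest probe set under the limit, which has no name here, stood at 1.998.

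PUB19 (AT1G60190, chromosome 1, 22198402 to 22200463, plus strand) encodes a U-box ligase known, together with its close relative PUB18, to dampen abscisic acid and drought responses. Its signal was 312.6, 458.9 and 1083 on OE arrays, against 100.8, 69.0 and 112.2 on KO arrays. OE replicate 3 stood far above the other OE arrays, and the lowest OE array was still 2.79 times the highest KO array. Means were 618 ± 409 in OE and 94.0 ± 22.4 in KO (SD, n = 3 each), a log2 difference of 2.36 (SE 0.40), the largest of the 5 and the one with the largest error. Without OE replicate 3 it was 1.87, and without OE replicate 1, the lowest, 2.74.

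CMPG1 (AT1G66160, chromosome 1, 24637217 to 24638513, plus strand) is named after amino acids conserved in its U-box; its parsley relative is an immediate-early gene of the response to fungal elicitors. Its signal was 233.2, 256.5 and 499.5 on OE arrays, against 50.3, 121.5 and 82.9 on KO arrays. The groups did not overlap, although OE replicate 3 again stood apart and the KO arrays spread by a coefficient of variation of 42.0%. Means were 330 ± 147 in OE and 84.9 ± 35.6 in KO (SD, n = 3 each), a log2 difference of 1.76 (SE 0.34). It was 1.43 without OE replicate 3.

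PUB22 (AT3G52450, chromosome 3, 19440942 to 19442250, minus strand) encodes a U-box ligase that, with PUB23 and PUB24, restrains immune signalling and acts in the drought response. It was the dimmest of the 5, with signals of 129.5, 74.9 and 94.9 on OE arrays, against 25.4, 29.9 and 36.4 on KO arrays. Unlike the other genes it was highest on OE replicate 1. Means were 99.8 ± 27.6 in OE and 30.6 ± 5.50 in KO (SD, n = 3 each), a log2 difference of 1.29 (SE 0.28). On KO arrays it lay above only 23.7% to 25.2% of probe sets, and its log2 difference depended on the constant added before the logarithm: it was 1.65 with 1 and 0.78 with 64 in place of 16.

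**Figure D2:**
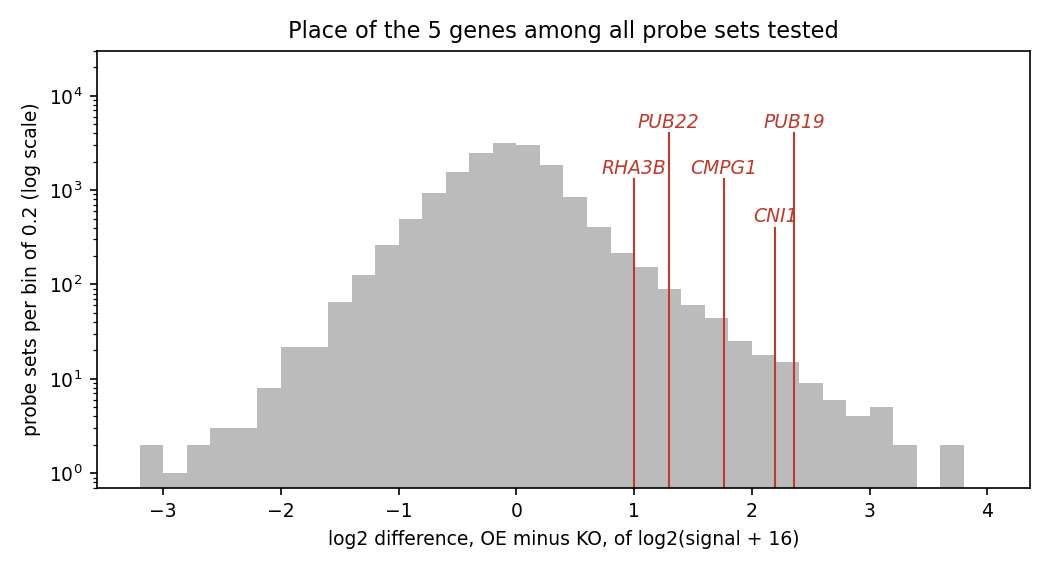
Number of probe sets (log axis) per bin of 0.2 of the log2 difference, OE minus KO, over the 15922 probe sets tested, with a line at each of the 5 ligase genes. The genes lie on the upper side, between 1.0 for RHA3B and 2.36 for PUB19, where their listing by the authors placed them.

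The order of the log2 differences was PUB19, CNI1, CMPG1, PUB22 and RHA3B. Its ends depended on the settings: with 64 added to the signal PUB22 (0.78) fell below RHA3B (0.94). Without OE replicate 3, PUB19 (1.87) fell below CNI1 (2.06), and without KO replicate 2 it did so too (2.18 against 2.42). With 64 added, both stood at 1.96. Neighbours in this order could not be separated cleanly, as the ratio of the 2 genes on each array shows. The log2 ratio of PUB19 to CNI1 was higher in OE than in KO by 0.16 (SE 0.54), that of CNI1 to CMPG1 by 0.44 (SE 0.21), that of CMPG1 to PUB22 by 0.47 (SE 0.50) and that of PUB22 to RHA3B by 0.29 (SE 0.23). In each of these 4 pairs the OE and KO arrays overlapped. All pairs here were picked by their place in the order, which rests on the same arrays. The sign of each difference was thus set in advance, and the values are a description with no test. At the ends of the order, the log2 ratio of PUB19 to RHA3B was -1.74, -1.16 and -0.19 on OE arrays, against -2.32, -2.53 and -2.30 on KO arrays. The difference was 1.36 (SE 0.46), with no overlap. Nor did the groups overlap in the log2 ratio of CNI1, second in the order, to RHA3B. It was -0.60, -0.14 and -0.17 on OE arrays, against -1.97, -0.85 and -1.69 on KO arrays, a difference of 1.20 (SE 0.37). For CNI1 to PUB22, also not neighbours, the groups overlapped. That log2 ratio was 2.32, 3.40 and 3.32 on OE arrays, against 1.85, 2.57 and 1.90 on KO arrays, a difference of 0.90 (SE 0.42). The remaining pairs of members were not compared in this way.

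Other ligase genes with a name also stood in the up table. Of the 10 named genes annotated with ubiquitin-protein ligase activity in the deposited tables, the up table (341 probe sets) holds 10, and 0 are among the 226 probe sets of the down table. CNI1, PUB19, PUB22 and CMPG1 are 4 of the 10; RHA3B does not carry the term there. These genes are known only because the authors listed them, so ligase genes that did not differ have no name here and the count is not independent evidence of direction.

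Of 22 U-box loci on a list of ligase genes, 6 had a named probe set, and limma called all 6 higher and 0 lower in OE (3.03% and 1.84% of all probe sets tested were so called), with a median log2 difference of 1.26 against -0.08 over all probe sets tested. Only probe sets that the authors listed at 2-fold or more in this contrast have a name here, so the counts and medians of this list and of those that follow restate the listing, and nothing is read from them. Besides PUB19, CMPG1 and PUB22 these were PUB18, PUB17, known for promoting cell death in immunity, and PUB25, a ligase of cold and immune signalling. PUB18 had signals of 191.7 to 348.6 in OE and 78.7 to 106.9 in KO, PUB17 of 2348 to 2877 in OE and 1015 to 1278 in KO, and PUB25 of 271.4 to 435.0 in OE and 128.8 to 166.3 in KO. Their log2 differences were 1.23 (SE 0.25), 1.12 (SE 0.14) and 1.1 (SE 0.20).

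Of 14 ATL and RHA loci, 5 had a named probe set, again through the authors' listing, and 4 were called higher and 0 lower (against the same 3.03% and 1.84% of all probe sets tested), with a median log2 difference of 1.17. Besides CNI1 and RHA3B these were ATL6, the closest relative of CNI1, RING1, a plasma membrane ligase of programmed cell death, and RHA1A. ATL6 had signals of 1006 to 1514 in OE and 470.9 to 654.4 in KO, a log2 difference of 1.17 (SE 0.19). RING1 had signals of 5879 to 8816 in OE and 2346 to 3814 in KO, a log2 difference of 1.26 (SE 0.21). RHA1A did not pass, at 190.4 to 389.7 in OE and 86.9 to 132.4 in KO and a log2 difference of 1.12 (SE 0.27). AT4G36550, on none of the lists but annotated as a ligase and named after its values were seen, was at 1.05 (SE 0.19). Of 11 loci of other stress-linked ligases, such as KEG, SDIR1 and the DREB2A-interacting proteins, 0 had a named probe set.

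Among 11 loci of known substrates, ubiquitin-conjugating enzymes and partners, 2 had a named probe set, and both, listed by the authors for the same contrast, were called higher, as were 3.03% of all probe sets tested. EXO70B2, an exocyst subunit that PUB22 marks for degradation during immune signalling, had signals of 882.6, 1110 and 1137 on OE arrays, against 302.0, 320.9 and 347.9 on KO arrays, a log2 difference of 1.63 (SE 0.15). MPK3, a kinase known to phosphorylate PUB22, had signals of 5110, 5955 and 5070 on OE arrays, against 2490, 2535 and 2667 on KO arrays, a log2 difference of 1.06 (SE 0.12). For both genes each OE array lay above each KO array, and since the listing used the same contrast, nothing is read from this. The transcripts of PUB22 and of its target EXO70B2 were both higher in OE, and protein levels were not measured.

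**Figure D3:**
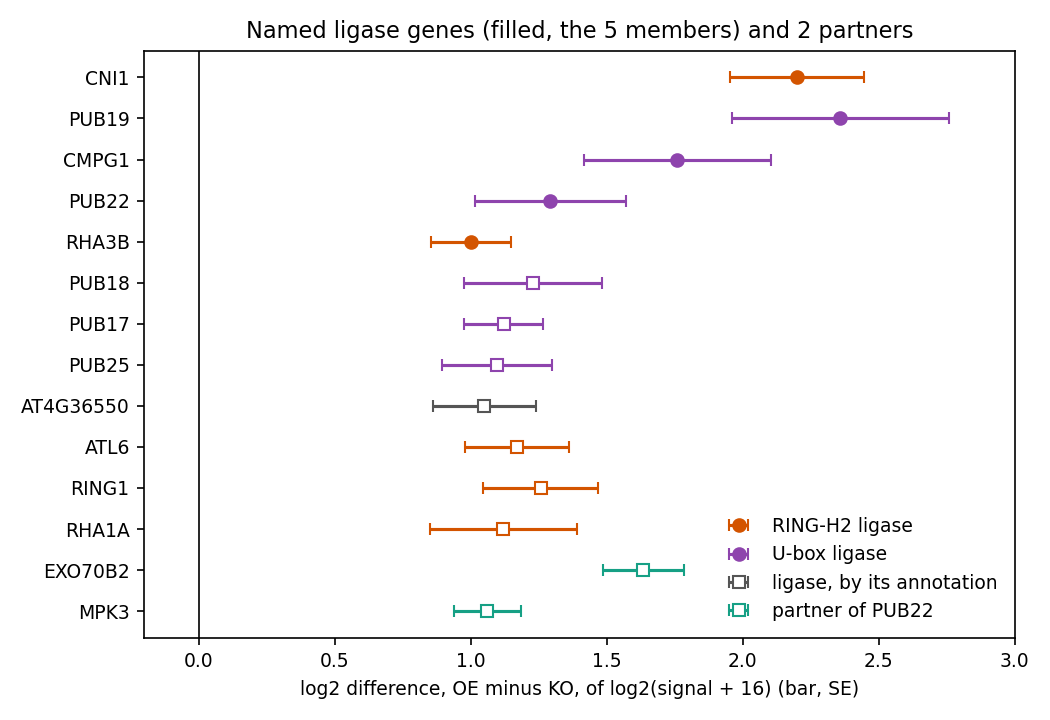
Log2 difference, OE minus KO, of log2(signal + 16) with its SE for the 5 members (filled), 7 other named ligase genes and the PUB22 partners EXO70B2 and MPK3 (open). PUB19 and CNI1 have the largest values at 2.36 and 2.20, and the other ligase genes lie between 1.05 and 1.26.

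A pair of close relatives differed in size in each family. The log2 ratio of PUB19 to PUB18 was 0.63, 1.19 and 1.59 on OE arrays, against 0.30, -0.34 and 0.06 on KO arrays, so PUB19 differed more between the genotypes than PUB18 by 1.13 (SE 0.34). The log2 ratio of CNI1 to ATL6 was -0.50, -0.68 and -0.13 on OE arrays, against -1.71, -1.30 and -1.38 on KO arrays, a difference of 1.03 (SE 0.20). Neither pair overlapped between the genotypes. These pairs were taken for their known relation, with both genes of each already listed, and the differences are given as a description with no test.

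The arrays within a genotype did not rank the genes alike. OE replicate 3 was the highest OE array for 4 of the 5 members, CNI1, PUB19, CMPG1 and RHA3B, where it was the highest for 30.6% of all probe sets tested. For the other 7 named ligase genes OE replicate 2 was the highest for 6, among them ATL6, RING1 and PUB17, where it was the highest for 34.3% of all probe sets tested. PUB18 followed OE replicate 3. PUB19, CMPG1 and PUB18 stood above their OE mean by 0.98, 0.66 and 0.53 on the log2 scale on that array. KO replicate 3 was the highest KO array for 3 of the 5 members and 4 of the other 7 ligase genes (34.8% of all probe sets tested). KO replicate 2 was the highest for 2 and 2 (31.1%). CNI1 and CMPG1 were both highest on KO replicate 2 (0.45 and 0.51 above the KO mean) and lowest on KO replicate 1 (-0.42 and -0.54), as were ATL6 and RING1. PUB19 and RHA3B were lowest on KO replicate 2.

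**Figure D4:**
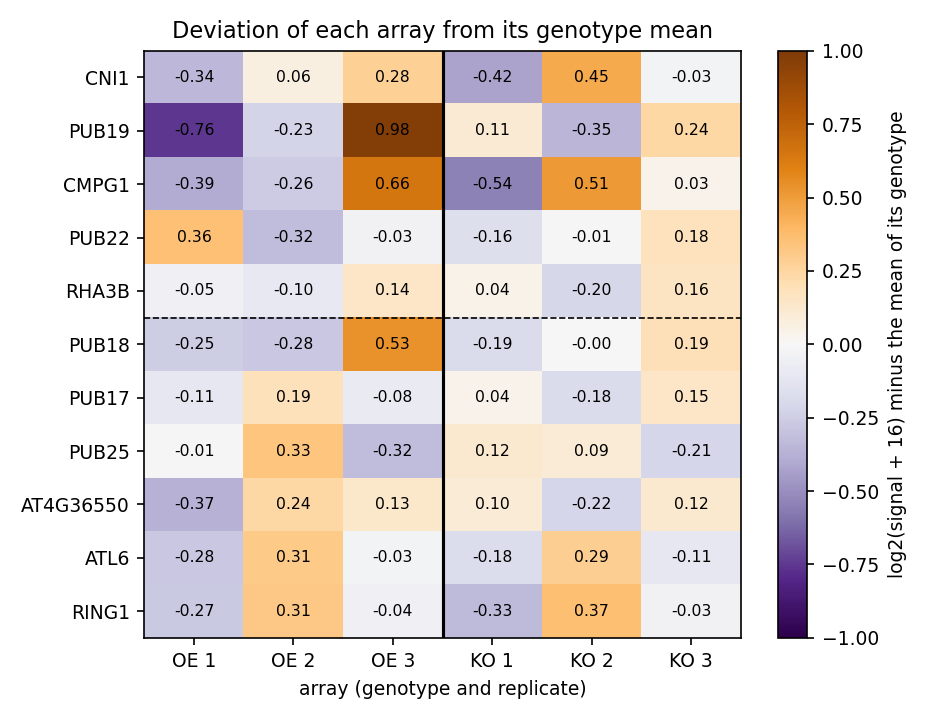
Log2(signal + 16) of 11 named ligase genes on each array minus the mean of its genotype (columns, OE left of KO; rows, the 5 members above the dashed line). PUB19, CMPG1 and PUB18 stand out on OE replicate 3, while CNI1, CMPG1, ATL6 and RING1 share a high KO replicate 2 and a low KO replicate 1.

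The closeness of 2 genes was measured as the root mean square difference of their log2 values over the 6 arrays, each centred on its own mean. CNI1 and CMPG1 were 0.31 apart and PUB22 and RHA3B 0.27, the closest pairs among the 5, and PUB19 and PUB22 were the farthest at 0.83. The named gene nearest to CNI1 was AT5G10695 (0.11), followed by CZF1 (0.16), a zinc finger gene, and AT2G41640 (0.17), where the median over all named genes was 0.68. PUB19 had no neighbour as close: NAC019 (0.31), DREB2A (0.32) and the lipoxygenase gene LOX3 (0.34), against a median of 0.90. Nearest to CMPG1 were AT5G66650 (0.13), the ERF repressor gene ERF4 (0.17) and BT5 (0.19), a BTB and TAZ domain gene. Nearest to PUB22 were the sugar transporter gene PMT6 (0.13), NAC016 (0.14) and AT1G63750 (0.14), and nearest to RHA3B were the invertase gene A/N-InvC (0.07), AT5G42050 (0.11) and AT1G17665 (0.11). The candidates were the 541 named probe sets, all of which the authors listed for the same contrast, as higher or as lower in OE. Centred over the 6 arrays, the values include that difference between genotypes, so its sign and size set part of this closeness, as do the shared arrays. The medians also cover genes listed as lower in OE. PUB22 and RHA3B, with log2 differences of 1.29 and 1.0, were highest on different OE arrays. Nothing beyond the listing is read from these distances.

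In the deposited annotation, 4 of the 5 genes carry the term for response to chitin, a fungal wall component, and 3 that for defence response. PUB19 carries neither. Neither term is particular to the members: 44 named genes carry the chitin term, 43 of them in the up table, and 36 the defence term, 35 of them in the up table. Of the 10 named genes annotated with ubiquitin-protein ligase activity, 6 carry the chitin term and 4 the defence term. Both RING-H2 genes, CNI1 and RHA3B, are annotated as integral to the membrane, and no U-box gene is. In the authors' deposited table the absolute folds are 5.84 for PUB19, 4.91 for CNI1, 3.89 for CMPG1, 3.22 for PUB22 and 2.03 for RHA3B, computed without an added constant.

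Values that moved with genotype stood beside these differences. The 3' to 5' ratio of the GAPDH control was 3.08, 3.03 and 3.15 on OE arrays, against 2.69, 2.52 and 2.06 on KO arrays. The second GAPDH and second actin pairs also separated the genotypes. The first actin pair and both ubiquitin pairs overlapped, as did the mean log2 ratio (1.73 to 1.97 in OE, 1.53 to 1.80 in KO). That mean covers unlike values. The 3' to 5' ratio of the first actin pair, the highest of the pairs on every array, was 16.5 to 20.5 in OE and 12.4 to 20.5 in KO. The array medians, lower in OE as given above, also separated the genotypes. With each array shifted to the same median, the log2 differences were 2.37 for CNI1, 2.53 for PUB19, 1.93 for CMPG1, 1.46 for PUB22 and 1.17 for RHA3B. With the mean log2 ratio of the controls as a covariate, the log2 differences were 2.74 (SE 0.29) for CNI1, 3.07 (SE 0.53) for PUB19 and 2.67 (SE 0.33) for CMPG1. They were 1.39 (SE 0.44) for PUB22 and 1.1 (SE 0.23) for RHA3B, and neither of these was still called. Of all probe sets tested, 1.19% were called higher with this covariate. The ratio tended to be higher in OE, so its part and that of genotype cannot be told apart here. CNI1 was called with each array left out in turn, and it was the only member called without OE replicate 2 or KO replicate 2. There 0.41% and 0.96% of all probe sets tested were called higher, against 3.03% as reported. Without OE replicate 3 (0.55% called higher), CNI1 and PUB19 were called, and without KO replicate 3 (1.53%), CNI1, PUB19 and RHA3B. Without OE replicate 1 (3.20%), all members but PUB22 were called. PUB22 was called without KO replicate 1 (3.44%) but with no other array left out.

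**Figure D5:**
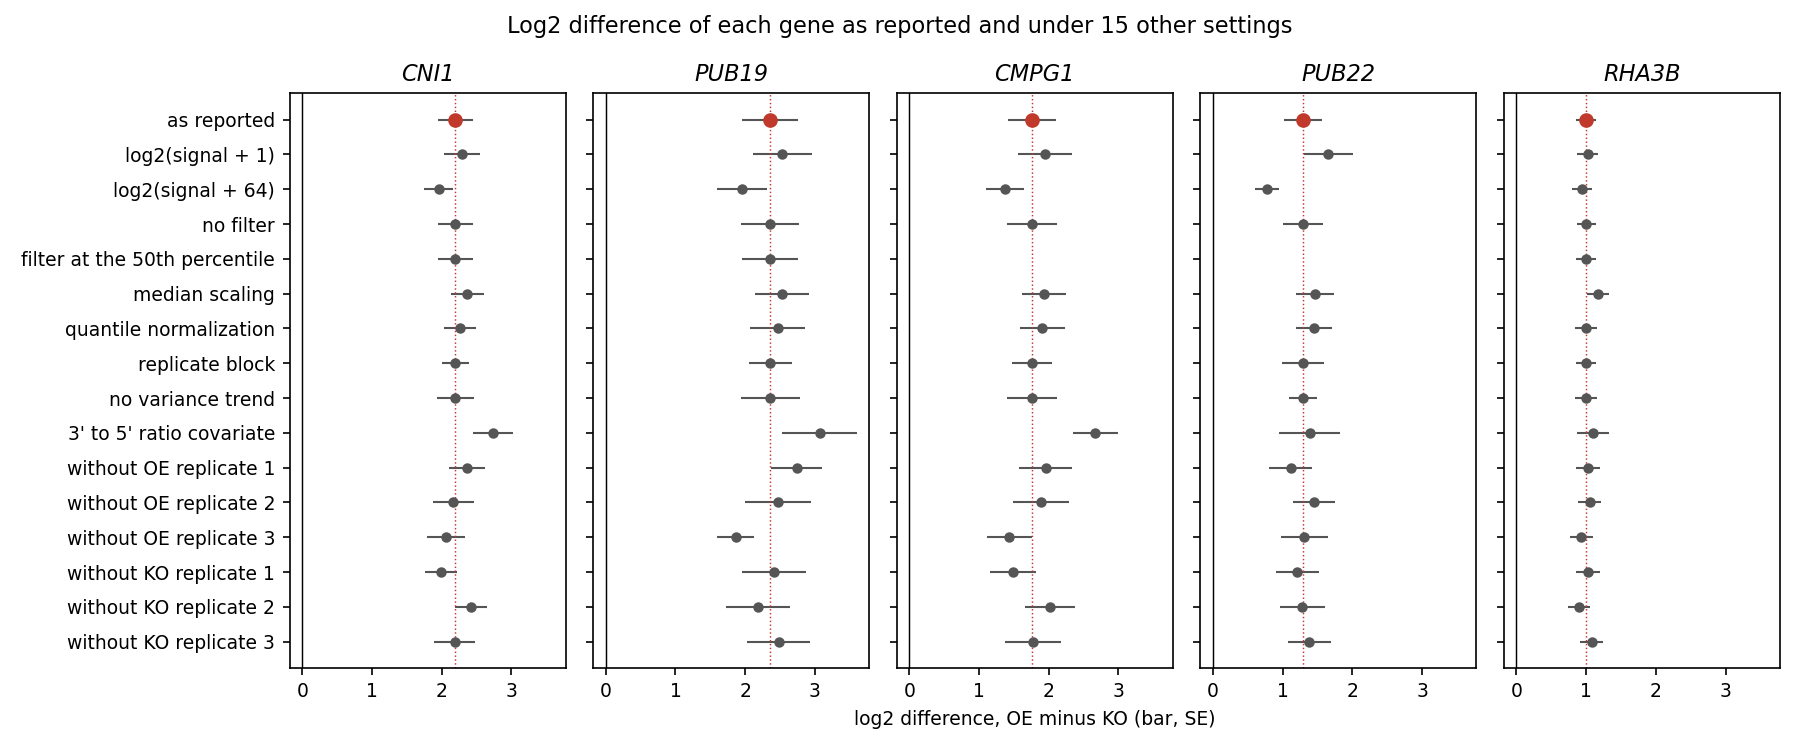
Log2 difference, OE minus KO, with its SE for each of the 5 genes as reported (red, dotted line) and under 15 other settings of scaling, filter, added constant, fit and arrays. All values are above 0, the lowest is 0.78 for PUB22 with 64 added to the signal, and CMPG1 and PUB22 have no value with the filter at the 50th percentile.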

How the data were processed

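Total RNA of 3 OE and 3 KO samples was measured on 6 ATH1 arrays, grouped by sample title. The intensity values are the authors' deposited signals on a linear scale, made with MAS5 per the submitters' processing notes, with no version given in the sources used here. The deposited tables of listed probe sets hold an absolute fold (a ratio) and a p-value for each, and the sources used here do not name the authors' test. Their 48 per-array columns have names that match no label and were not used. Names came from the Entrez gene identifiers of these tables, matched to NCBI RefSeq (TAIR10.1, names only): 541 of 567 probe sets had 1 gene, 21 had several, 4 had none and 1 was not found.

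Log2(signal + 16) values of the probe sets outside the 64 controls and above the 30th percentile of mean level were fitted with limma 3.58.1 (R 4.3.3, lmFit and eBayes with a variance trend, group as the only term). Benjamini-Hochberg adjusted p-values, two-sided, cover all 15922 probe sets, with a threshold of 0.05. The steps were tested on simulated arrays. The number of arrays limits the precision. The series text calls the replicates of a genotype independent.

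The members, lists and tests were chosen with earlier results of these data known. The genes named are the 5 members, ANAC069, all list members with a named probe set, and the 3 nearest named genes of each member. The planned promoter and protein comparisons were not run, since no sequence table was used here. Alternatives changed the added constant, filter, scaling, variance trend, replicate block, control ratio covariate and each array in turn.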

Additional observations from a re-analysis of the deposited data

How the results depend on the processing

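The log2 differences of CNI1, PUB19, CMPG1, PUB22 and RHA3B stayed above 0 under every alternative that gave a value. Those that moved by more than the spread between replicates were CNI1, PUB19 and CMPG1 with the control ratio as a covariate (2.74, 3.07 and 2.67), PUB22 with 1 or 64 added to the signal (1.65 and 0.78), and RHA3B with each array shifted to the same median (1.17). That shift raised the median of all probe sets tested to 0.09, against -0.08 as reported, and the share of calls that were higher in OE to 84.7%, against 62.2%.

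As reported, 483 probe sets were higher and 293 lower. With no filter, median scaling, the replicate block, no variance trend and the ratio covariate, 261, 794, 238, 161 and 189 were higher, and 76, 143, 37, 43 and 19 lower. With the filter at the 50th percentile, 552 were higher and 405 lower, of 11373 tested. With 1 array left out the numbers ran between 66 and 548 higher and between 7 and 852 lower. Of the 5 members, 3 were called with no filter, with the filter at the 50th percentile (which left CMPG1 and PUB22 untested), with no variance trend and with the ratio covariate, and between 1 and 5 with 1 array left out. Of the list genes with a named probe set (6 U-box genes, 5 ATL and RHA genes and 2 substrates or partners), 12 were called higher as reported. There were 7 with no variance trend, 5 with the ratio covariate and between 4 and 12 with 1 array left out. Calls over all probe sets also fell with no filter, no variance trend and the ratio covariate, so these drops are not particular to the members or list genes. With the filter at the 50th percentile, every member still tested was called. The cause was not tested.

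Over all probe sets tested, the replicate numbers gave no clear sign of pairing. Deviations of same-numbered OE and KO arrays correlated at -0.24, -0.12 and 0.06. These deviations sum to 0 within a genotype, so the correlations are not independent and cannot settle the question. With the replicate block, the SE was lower for CNI1 (0.19, against 0.25), PUB19 (0.31, against 0.40) and CMPG1 (0.29, against 0.34). It was higher for PUB22 (0.31, against 0.28) and the same for RHA3B (0.15). Replicate 1 of OE correlated best with KO replicate 2 (0.15) and OE replicate 2 with KO replicate 1 (0.27). With the replicate block, 4 of the 5 members were called, all but PUB22, where 1.49% of all probe sets tested were called higher.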

Other observations

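The OE arrays did not rank ANAC069 and the ligase genes alike. OE replicate 1 had the highest ANAC069 signal (2991, against 2386 and 2360 on OE replicates 2 and 3), and it was the lowest OE array for CNI1, PUB19 and CMPG1 and the highest for PUB22. Of the 7 other named ligase genes, 5 were lowest on OE replicate 1, where 33.0% of all probe sets tested were.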
